A study of Mus musculus with 12 samples.

Results

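The genes described here are 10 transcripts of the integrated stress response and of the serine and one-carbon pathway that it drives: Atf4, Atf5, Ddit3, Trib3, Chac1, Asns, Phgdh, Psat1, Shmt2 and Mthfd2. They were taken by name from the 20775 genes listed for each of 2 RNA-seq experiments, as a list drawn up with earlier results of these data known. Their transcript levels were compared between Med30 knockout and control (Ctrl) samples. MED30 is a subunit of Mediator, the complex that links transcriptional activators to RNA polymerase II. At E10.5 (embryonic day), whole hearts of Med30 f/f embryos with Tnnt-Cre, which acts in cardiomyocytes (cKO, n = 3), were set against hearts of Cre-negative littermates (Ctrl, n = 3). In adults, cardiomyocytes were isolated at 3 months of age, 4 weeks after tamoxifen, from Med30 f/f mice with αMHC-MerCreMer, a Cre of cardiomyocytes that tamoxifen activates (icKO, n = 3), and from Ctrl mice (n = 3) of the floxed genotype that lacked Cre and also received tamoxifen. The sample labels give strain C57BL/6 for all groups and call the controls wild type. No group carried Cre without loss of Med30, so an effect of Cre cannot be told apart from that of the knockout, and the labels do not say whether replicates were separate animals or pools. P-values therefore measure the spread between samples, which may be technical in part.

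The integrated stress response begins when one of several kinases phosphorylates the translation factor eIF2. General protein synthesis then falls, while translation of ATF4, a transcription factor, rises. ATF4 and its partners activate genes for amino acid synthesis, amino acid uptake and the charging of tRNAs, and in the heart the response is known from mitochondrial disease. Because ATF4 is controlled largely at translation, its transcript is not a measure of its protein.

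ATF4 binds DNA together with C/EBP proteins at short composite elements (CARE). To show which of the 10 genes hold such letters close to their start, RefSeq promoter windows (GRCm38.p6, 250 bases before to 50 bases after the start) were searched on both strands for TGATGNAA and TGNTGCAA, which can match the same bases. All 10 genes matched, with 12 windows. TGATGNAA lay in 3.97% and TGNTGCAA in 3.22% of all 32851 windows, and at least one of them in 6.2%. They were present in 4 of the 12 windows, which belong to 4 of the 10 genes, Chac1, Trib3, Asns and Psat1 (1 of its 2 windows). The patterns were absent from the windows of Atf4, Atf5, Ddit3, Phgdh, Shmt2 and Mthfd2. The stretches of 30 bases around each match are shown 5′ to 3′ on the strand of the gene, with the match in capitals. A match of letters is not evidence of binding, and its absence from this window says nothing of the factor.
Chac1, chr2:119351038-119351067, plus strand, 193 bases before the start, matching both patterns: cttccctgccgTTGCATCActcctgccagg
Trib3, chr2:152344075-152344104, minus strand, 33 bases before the start: cgggtcacagaTGGTGCAAtcccgggccgc
Trib3, chr2:152344028-152344057, minus strand, 15 bases after the start: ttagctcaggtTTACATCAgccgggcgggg
Asns, chr6:7693214-7693243, minus strand, 23 bases before the start: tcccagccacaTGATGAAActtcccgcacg
Psat1, chr19:15925177-15925206, minus strand, 136 bases before the start: acgcgggtggcTGGTGCAAtcccctgctct

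Levels are RPKM, read counts divided by gene length and library size, as deposited by the authors. Med30 itself stood at 10.55, 13.3 and 11.3 RPKM in the E10.5 Ctrl hearts and at 1.38, 2.02 and 1.004 in the cKO hearts. In adult cardiomyocytes it stood at 7.66, 7.45 and 7.66 in Ctrl and at 3.81, 3.16 and 1.82 in icKO. From the spacing of the lowest RPKM values the libraries held about 13.7 to 20 M reads at E10.5 and 12 to 17.5 M at 4 weeks, so that 3 reads on Asns, for example, were worth up to 0.109 and 0.124 RPKM, counting error only. The summed RPKM of 8 cardiomyocyte markers was 4676 to 7378 in E10.5 Ctrl and 3262 to 4265 in cKO, and 19320 to 20090 in adult Ctrl and 7168 to 9039 in icKO. The adult Ctrl cells were nearly free of fibroblast transcripts, with 7 of 8 fibroblast markers under a mean of 1 RPKM and a sum of 5.03 to 8.39, against 60.4 to 87.5 in icKO. The 20 most abundant genes held 24.8% to 25.4% of all RPKM in adult Ctrl and 11.5% to 13.1% in icKO, and over all genes tested the log2 fold change had a median of 0.57 at 4 weeks and of -0.13 at E10.5. Under median-ratio scaling these medians were 0.04 and -0.01.

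**Figure D1:**
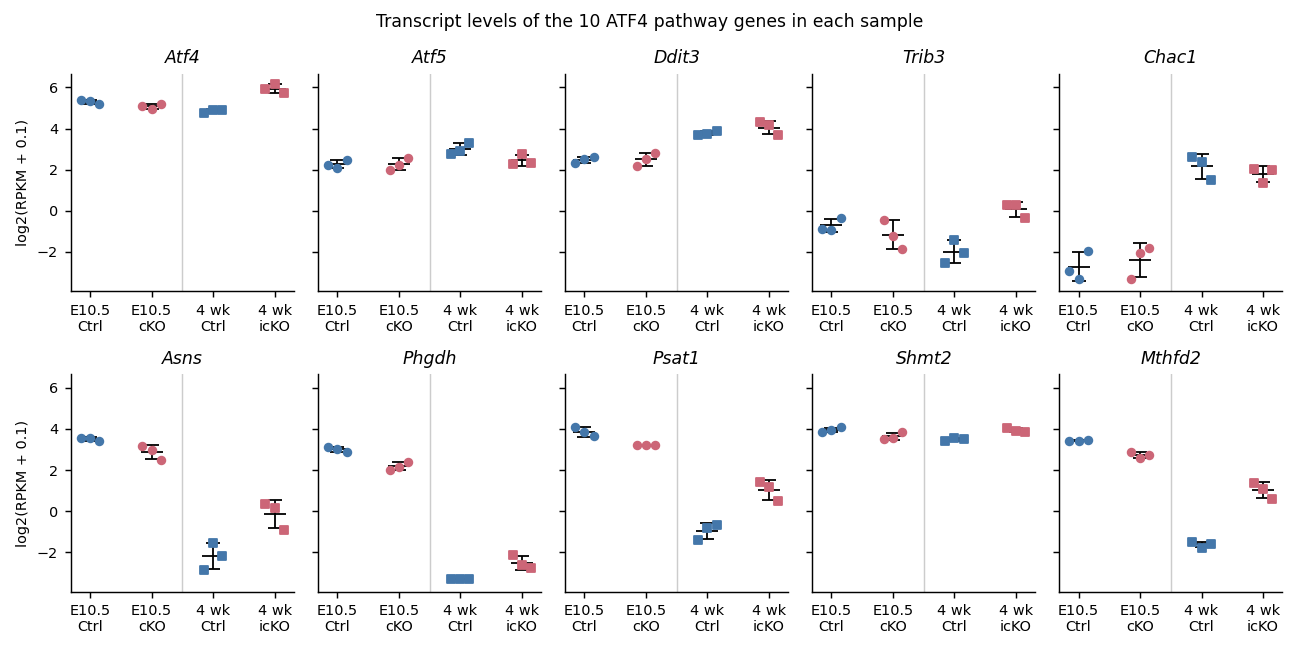
Level of each of the 10 genes in every sample, as log2(RPKM + 0.1), with the mean and SD of each group in black (n = 3 per group, Ctrl in blue, knockout in red, circles for E10.5 hearts and squares for adult cardiomyocytes 4 weeks after tamoxifen). Atf4, Asns, Phgdh, Psat1, Shmt2 and Mthfd2 lie lower in every E10.5 cKO heart than in every Ctrl heart. They lie higher in every adult icKO sample than in every adult Ctrl sample. Of all genes tested, 22.6% had the first order at E10.5 and 62.0% had the second at 4 weeks. The adult values of Phgdh stand for 0 reads in Ctrl and about 1 to 4.1 in icKO.

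In E10.5 hearts of Med30 cKO embryos 3 enzymes of serine and folate metabolism were lower, and the transcription factors Atf4, Atf5 and Ddit3 did not pass the test. By mean RPKM, Phgdh fell by 43.4%, Mthfd2 fell by 37.9% and Psat1 fell by 36.8%. No gene of the 10 was higher in all cKO hearts than in all Ctrl hearts. Differences were tested with limma on log2(RPKM + 0.1) over all 10885 genes with a mean RPKM above 1, with Benjamini-Hochberg adjustment. Of the 10 genes 8 were tested, and Trib3 and Chac1 lay under this minimum.

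Phgdh, the first enzyme of serine synthesis from glycolysis, stood at 8.55, 7.99 and 7.24 RPKM in Ctrl and 3.94, 4.29 and 5.22 in cKO. The groups were well apart, with a log2 fold change of -0.82 (SE 0.143, adjusted p = 0.0230). Psat1, the aminotransferase of the second step, stood at 17.2, 14.1 and 12.4 RPKM in Ctrl and 9.31, 9.22 and 9.08 in cKO. Its cKO hearts lay close together below all Ctrl hearts, with a log2 fold change of -0.64 (SE 0.133, adjusted p = 0.0326). Mthfd2, the mitochondrial folate dehydrogenase, stood at 10.4, 10.6 and 10.7 RPKM in Ctrl and 7.35, 5.81 and 6.57 in cKO. The 3 Ctrl hearts were almost equal and all cKO hearts lower, with a log2 fold change of -0.69 (SE 0.122, adjusted p = 0.0243). Shmt2, which makes glycine and one-carbon units from serine in mitochondria, stood at 14.55, 15.45 and 16.7 RPKM in Ctrl and 11.4, 11.6 and 14.3 in cKO. Its groups did not overlap, but the log2 fold change of -0.33 did not pass the test (SE 0.124, adjusted p = 0.154).

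Asns, which makes asparagine, stood at 11.7, 11.8 and 10.4 RPKM in Ctrl and 8.83, 7.64 and 5.56 in cKO. All cKO hearts lay below all Ctrl hearts, with a log2 fold change of -0.64 close to the threshold (SE 0.166, adjusted p = 0.0612). Atf4, the central transcription factor of the response, was the most abundant of the 10 genes, at 41.1, 40.2 and 36.75 RPKM in Ctrl and 34.1, 30.8 and 35.99 in cKO. Its groups were separated by less than 1 RPKM, with a log2 fold change of -0.23 (SE 0.111, adjusted p = 0.244). Atf5, a related factor of the mitochondrial stress response, stood at 4.64, 4.16 and 5.45 RPKM in Ctrl and 3.90, 4.598 and 5.90 in cKO. Ddit3, which encodes the factor CHOP, stood at 4.91, 5.59 and 5.96 RPKM in Ctrl and 4.44, 5.66 and 6.81 in cKO. Both of these genes overlapped between groups, with 95% intervals of the log2 fold change from -0.39 to 0.40 for Atf5 and from -0.36 to 0.40 for Ddit3. Trib3, a pseudokinase that ATF4 and CHOP induce, was at 0.437, 0.428 and 0.693 RPKM in Ctrl and 0.637, 0.331 and 0.177 in cKO, also overlapping. Chac1, which degrades glutathione, was close to the level of a few reads, at 0.032, 0 and 0.158 RPKM in Ctrl and 0, 0.144 and 0.185 in cKO.

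Counted over the list, 3 of 8 genes tested passed at an adjusted p under 0.05 in the lower direction, where 3.45% of all genes tested did so, and 0 of 8 in the higher direction (0.864% of all genes). None was called, that is, passed with a log2 fold change beyond 1, where 0.542% of all genes were called lower and 0.239% higher. By limma's unadjusted p under 0.05 and with no minimum fold, 5 of 8 were lower and 0 higher, where 19.2% and 4.39% of all genes tested were. In 6 of 8, Atf4, Asns, Psat1, Phgdh, Shmt2 and Mthfd2, every cKO heart was below every Ctrl heart, where 22.6% of all genes tested had this order, and in 0 of 8 every cKO heart was above (6.50% of all genes). The median log2 fold change of the 8 genes was -0.48, against -0.13 over all genes. With median-ratio scaling it was -0.36 against -0.01, and Phgdh, Psat1 and Mthfd2 passed again. Mthfd2 did not pass when the 20 most abundant genes were kept out of the scaling (adjusted p = 0.0550) or without a variance trend (0.0529), nor did Psat1 with no minimum RPKM (0.0568) or without the trend (0.0723). With 1 sample left out, all 3 passed without cKO replicate 3, Mthfd2 alone passed without cKO replicate 1, and none passed without cKO replicate 2 or any one of the Ctrl replicates. Across these fits the adjusted p reached 0.0832 for Phgdh, 0.0961 for Psat1 and 0.102 for Mthfd2, and all log2 fold changes stayed negative, from -0.93 to -0.52.

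These hearts hold several cell types, and fewer cells of a type cannot be told apart from less RNA per cell. The sum of cardiomyocyte markers did not overlap between groups. Its largest part was Myl2, with a mean of 3105 in Ctrl and 1436 in cKO. Actn2 (163.9 and 166.9) and Ttn (175.5 and 197.8) had higher means in cKO, the other cardiomyocyte markers lower ones. The summed RPKM of 8 macrophage markers was 8.87 to 11.8 in Ctrl and 4.98 to 6.88 in cKO, with 2 of the 8 at 0 in all Ctrl hearts. Most of it was Lyz2, with means of 7.72 and 3.77. Cd68 stood at 1.67 and 1.57, and 6 of the 8 had means under 1. Fibroblast (90.5 to 166 and 116 to 133), endothelial (144 to 192 and 169 to 181), mural (30.1 to 34.3 and 32.0 to 33.9), epicardial (39.8 to 45.9 and 30.9 to 45.5) and erythroid sums (305 to 1047 and 465 to 2739) overlapped between Ctrl and cKO. Of these lists, 1 macrophage marker (Lyz2) and 1 epicardial marker passed the test, both lower, and no marker of cardiomyocytes did. The part of cell composition in the lower enzyme transcripts was not tested.

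In adult cardiomyocytes 4 weeks after tamoxifen, Atf4, Psat1 and Mthfd2 rose. Atf4 was 2.13-fold, Psat1 4.77-fold and Mthfd2 8.71-fold higher in icKO by mean RPKM, and Psat1 and Mthfd2 rose from a level at which the Ctrl cells hardly expressed them. Atf5 fell to 0.679 of its Ctrl mean. Of the 10 genes 7 were tested here. Asns, Trib3 and Phgdh were under the minimum, and Psat1 and Mthfd2 passed it only through their icKO values, so that these 2 could hardly enter the test without differing.

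Atf4 stood at 27.1, 30.2 and 29.97 RPKM in Ctrl and 61.5, 72.0 and 52.7 in icKO. The lowest icKO sample was far above the highest Ctrl sample, with a log2 fold change of 1.08 (SE 0.115, adjusted p = 2.80e-05). Under median-ratio scaling the log2 fold change was 0.54 (adjusted p = 0.00207), still past the test but under the minimum for a call. Atf5 stood at 6.69, 7.52 and 9.73 RPKM in Ctrl and 4.68, 6.62 and 4.95 in icKO. The groups nearly touched, with a log2 fold change of -0.55 (SE 0.173, adjusted p = 0.0160). With median-ratio scaling it was -1.08 (adjusted p = 0.000553). The adjusted p of Atf5 rose to 0.0527, 0.0638 and 0.0550 without Ctrl replicate 3, icKO replicate 1 and icKO replicate 3. Ddit3 stood at 12.9, 13.3 and 14.5 RPKM in Ctrl and 19.65, 17.7 and 12.8 in icKO, where replicate 3 was below all Ctrl samples. Its log2 fold change of 0.28 did not pass the test (SE 0.150, adjusted p = 0.115) and was -0.26 with median-ratio scaling (adjusted p = 0.126). Without icKO replicate 3 it was 0.46 (adjusted p = 0.00320).

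Trib3 stood at 0.074, 0.276 and 0.143 RPKM in Ctrl and 1.09, 1.10 and 0.690 in icKO. In reads these are about 2, 9.8 and 4.9 against 37.4, 37.4 and 16.7, without overlap. Chac1 stood at 6.06, 5.06 and 2.70 RPKM in Ctrl and 3.99, 2.47 and 3.82 in icKO. The groups overlapped, and its log2 fold change of -0.37 did not pass the test (SE 0.293, adjusted p = 0.269), although it was -0.90 with median-ratio scaling (adjusted p = 0.0257) and -0.71 without Ctrl replicate 3 (adjusted p = 0.0139). Asns stood at 0.039, 0.237 and 0.123 RPKM in Ctrl and 1.17, 0.994 and 0.434 in icKO. The Ctrl values correspond to about 1, 8.4 and 4.2 reads, and all icKO samples lay above them. When all genes were fitted with no minimum, Asns and Trib3 both gave a log2 fold change of 2.05 (SE 0.429, adjusted p = 0.00317 and SE 0.341, adjusted p = 0.000861, respectively), on a scale that understates the change of low genes.

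Phgdh, the entry enzyme of serine synthesis, was listed at 0 in all 3 Ctrl samples and at 0.127, 0.064 and 0.045 RPKM in icKO. The icKO values stand for about 4.1, 2 and 1 reads, so no fold is given and a difference could hardly be measured at this depth. Psat1, the next enzyme, stood at 0.279, 0.471 and 0.516 RPKM in Ctrl and 2.56, 2.17 and 1.31 in icKO. All icKO samples were more than 0.5 RPKM above all Ctrl samples, with a log2 fold change of 1.999 (SE 0.309, adjusted p = 0.000292). Mthfd2 stood at 0.256, 0.192 and 0.228 RPKM in Ctrl, about 7 or 8 reads, and at 2.46, 2.02 and 1.41 in icKO. It had the largest log2 fold change of the 7 genes tested, 2.64 (SE 0.279, adjusted p = 2.64e-05). With median-ratio scaling Psat1 and Mthfd2 kept log2 fold changes of 1.52 (adjusted p = 0.00195) and 2.19 (adjusted p = 0.000125). Shmt2 stood at 10.56, 11.8 and 11.1 RPKM in Ctrl and 16.4, 15 and 14.3 in icKO. It rose by a log2 fold change of 0.45 (SE 0.0919, adjusted p = 0.00169), which was less than the median of all genes and turned to -0.09 with median-ratio scaling (adjusted p = 0.353).

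**Figure D2:**
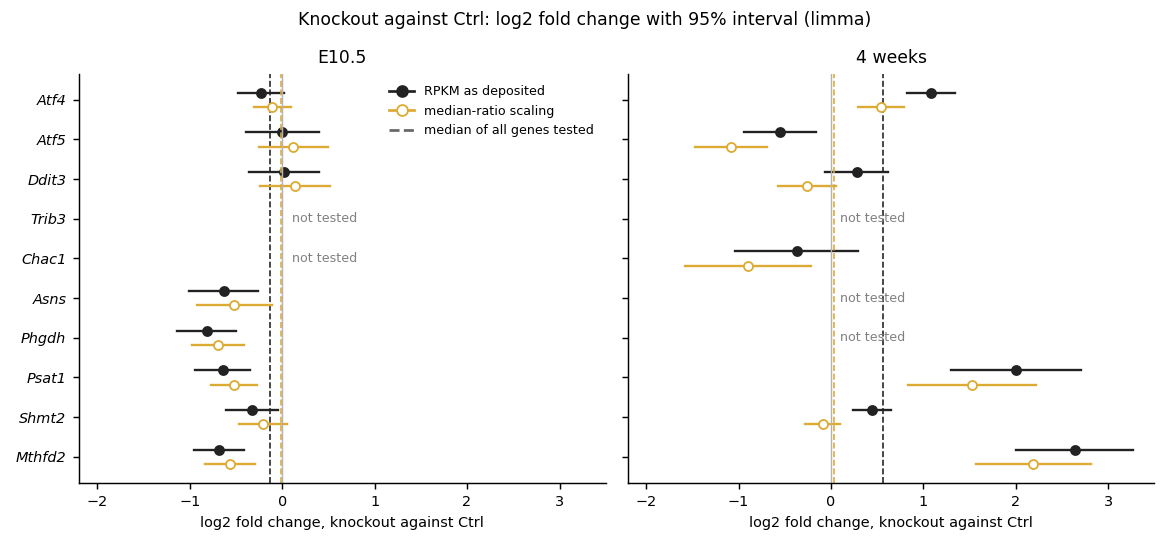
Log2 fold change of knockout against Ctrl with its 95% interval (limma) for each of the 10 genes at E10.5 (left) and 4 weeks after tamoxifen (right), from RPKM as deposited (black, filled) and after median-ratio scaling (yellow, open). Dashed lines mark the median of all genes tested in each fit, at -0.13 and 0.57 as deposited. Psat1 and Mthfd2 lie right of 0 and of both medians in adult cells under either scaling, while Shmt2 and Ddit3 cross 0 with the scaling.

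Over the list, 3 of 7 genes tested in adult cells were called higher (Atf4, Psat1 and Mthfd2), where 28.0% of all 9517 genes tested were. Psat1 and Mthfd2 passed the minimum only through icKO, so that these 2 could hardly enter the test without rising. Of the 7, 0 were called lower (8.45%). At limma's unadjusted p under 0.05, 1 of 7 was lower (Atf5), where 18.6% of all genes tested were. By the test alone 4 rose, Shmt2 included, and Atf5 fell, where 60.6% of all genes rose and 18.1% fell. The share that rose was no higher than among all genes, and the median log2 fold change of the 7 was 0.45 against 0.57. With median-ratio scaling 3 passed higher (34.7% of all genes) and 2 lower (33.5%), with a median of -0.09 against 0.04. Over all genes the calls were 2668 higher and 804 lower as deposited, and 1106 higher and 1476 lower with median-ratio scaling. The authors tested counts with DESeq2 at the same thresholds and report more genes lower than higher in these cells, as with median-ratio scaling. In 4 of 7 tested genes every icKO sample was above every Ctrl sample (62.0% of all genes tested), and in 1 of 7, Atf5, below (18.9%). Asns, Trib3 and Phgdh, which were not tested, also had every icKO value above every Ctrl value. Only 1 gene was called higher without icKO replicate 1 (Atf4), since Psat1 and Mthfd2 then fell under the minimum. Without icKO replicate 2 it was 1 again, Psat1, as Mthfd2 fell under the minimum and Atf4 gave 0.97. Replicate 3 had the lowest icKO value of 8 of the 10 genes, a count that was not set against all genes. For Phgdh that value stands for about 1 read. Replicate 3 was also the icKO sample with the least Med30 and the fewest reads, and a link to these was not tested.

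All 5 fibroblast markers that were tested rose. Of these, Col1a1, Col1a2, Col3a1 and Postn passed the minimum only through icKO, so that this count was largely fixed by the minimum. Postn stood at 24.4 ± 2.14 RPKM in icKO against 0.367 ± 0.129 in Ctrl (SD, n = 3), and Col1a1 at 11.4 ± 3.43 against 0.435 ± 0.169. With median-ratio scaling 4 of 5 rose. Endothelial sums were 11.0 to 29.0 in Ctrl and 28.8 to 50.6 in icKO, with 4 of 8 markers higher (2 of 8 with median-ratio scaling), no more than the share of all genes. Macrophage sums were 3.02 to 4.82 and 7.17 to 10.4, with 3 of 3 tested markers higher (1 of 3), of which C1qa and C1qb passed the minimum only through icKO. Mural sums were 60.8 to 68.7 and 21.8 to 45.3, with 2 of 4 tested markers higher (1 of 4) and Abcc9 lower under both scalings. Most of the mural sum in Ctrl was Abcc9, with a mean of 55.1 in Ctrl and 4.97 in icKO. Each of the other mural markers had a higher mean in icKO. Epicardial (0.991 to 2.71 and 1.70 to 3.68) and erythroid sums (1.17 to 2.12 and 1.23 to 6.87) overlapped, and none of their markers reached the minimum. Cardiomyocyte markers fell in 6 of 8, with Myh6 at 440 ± 101 RPKM in icKO against 4381 ± 145 in Ctrl, and 1 passed in the higher direction, the same counts as with median-ratio scaling. The part of these cells in the rise of Psat1, Mthfd2, Asns and Trib3 from near 0 was not tested. The fibroblast sum was 63.6 in icKO replicate 3, where the 4 genes were lowest, and 87.5 and 60.4 in replicates 1 and 2. In the same order the macrophage sum was 7.17, 10.4 and 9.76. The endothelial sum was 50.6, 31.4 and 28.8, and the mural sum 45.3, 21.8 and 26.5. No relation of these sums to the genes was tested.

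The 2 stages started from different levels. In Ctrl samples the mean RPKM was 11.3 at E10.5 and 0.133 in adult cells for Asns, 7.93 and 0 for Phgdh, 14.6 and 0.422 for Psat1, and 10.6 and 0.225 for Mthfd2. Chac1 was the opposite, at 0.0633 and 4.61. The remaining means were 39.4 and 29.1 for Atf4, 15.6 and 11.2 for Shmt2, 4.75 and 7.98 for Atf5, 5.49 and 13.55 for Ddit3, and 0.519 and 0.164 for Trib3. The tables were normalized separately, one from whole hearts and one from isolated cells, and these levels were not tested against each other. Even after the rise in icKO, Psat1 (2.01 ± 0.642 RPKM, SD, n = 3) and Mthfd2 (1.96 ± 0.526) stayed below their E10.5 cKO means of 9.20 ± 0.120 and 6.58 ± 0.770.

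Whether the knockout effect itself differed between stages was tested as a contrast of the 2 within-stage log2 fold changes in a limma fit of all 12 samples. Of 6 genes with a mean RPKM above 1 at both stages, 4 differed, all toward higher values in adult cells: Mthfd2 by 3.32 (SE 0.261, adjusted p = 3.45e-07), Psat1 by 2.64 (SE 0.328, adjusted p = 1.24e-05), Atf4 by 1.31 (SE 0.163, adjusted p = 1.28e-05) and Shmt2 by 0.77 (SE 0.154, adjusted p = 0.000600). Psat1 and Mthfd2 reached the adult minimum only through icKO, and without icKO replicate 1 neither could be tested, nor Mthfd2 without icKO replicate 2. Atf5 differed by -0.55 (95% interval -1.12 to 0.02, adjusted p = 0.0776) and Ddit3 by 0.26 (95% interval -0.26 to 0.77, adjusted p = 0.351), neither past the threshold. Of all 8909 genes in this fit 68.7% differed, with a median difference of 0.69, and 5296 differed toward higher values in adult cells. The share of 4 in 6 was no more than that of all genes. Under median-ratio scaling the differences were 2.75 for Mthfd2, 2.05 for Psat1 and 0.65 for Atf4, with adjusted p of 2.68e-06, 0.000141 and 0.00210. That of Shmt2 was then 0.12 (adjusted p = 0.520), and that of Atf5 passed at -1.20 (adjusted p = 0.00152). Age, tissue, Cre line and tamoxifen all differed between the 2 stages and cannot be told apart.

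The wider pathway was described by 8 lists of genes. At E10.5 no gene of any list was called. Of all genes tested, 0.542% were called lower and 0.239% higher, and 3.45% passed lower and 0.864% higher by any amount. Genes of the lists that passed with smaller folds included 2 of 20 cytosolic tRNA synthetases (Farsb and Kars, lower). They also included 1 of 13 mitochondrial proteases and chaperones (Hspd1, lower). In the ATF6 and XBP1 arm of the unfolded protein response, 3 of 21 genes passed lower (Hspa5, Manf and Sdf2l1) and 1 higher (Atf6). Among 19 tested of the other serine, glycine and folate enzymes, Shmt1 passed in the lower direction. Shmt1, the cytosolic counterpart of Shmt2, had a log2 fold change of -0.86 (adjusted p = 0.0177). Shmt1 stood at 9.29 RPKM in Ctrl and 5.08 in cKO by mean. None passed among 14 other ATF4 and CHOP targets, 16 genes of eIF2, its kinases, eIF2B and the eIF2 phosphatase, 10 amino acid transporters and 8 glutathione genes. List medians of the log2 fold change ran from -0.32 in the ATF6 and XBP1 arm to 0.01 in the other ATF4 and CHOP targets.

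The adult counts that follow stand against 60.6% of all genes that rose and 18.1% that fell, and against 28.0% called higher and 8.45% called lower. With median-ratio scaling 34.7% rose and 33.5% fell, and 11.6% were called higher and 15.5% lower. The largest log2 fold change of the 8 lists in adult cells was that of Slc7a5, the light chain of the transporter for large neutral amino acids. It was at 0.807 ± 0.158 RPKM in Ctrl and 16.2 ± 3.56 in icKO, with a log2 fold change of 4.16 (adjusted p = 3.70e-07). The gene passed the minimum only through icKO. Its partner Slc3a2 rose from 6.79 ± 0.729 to 29.0 ± 8.86 RPKM, by 2.03 on the log2 scale (adjusted p = 2.71e-05), while Slc38a3, a glutamine transporter, fell from 27.0 ± 2.79 to 5.75 ± 1.01. Of 7 tested transporters 4 were called higher and 1 lower, with a median log2 fold change of 1.18. The median was 0.66 with median-ratio scaling, where 2 were called higher and 1 lower.

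Cytosolic tRNA synthetases, which charge tRNAs with amino acids, rose in 19 of 20, with 11 called and a median log2 fold change of 1.10 against 0.57 for all genes. Cars rose from 3.42 ± 0.168 to 14.7 ± 2.39 RPKM and Nars from 16.6 ± 1.21 to 62.2 ± 5.59, with log2 fold changes of 2.06 and 1.89 (adjusted p = 1.49e-06 and 5.04e-07). Dars, at 17.1 in Ctrl and 15.7 in icKO, was the exception. With median-ratio scaling 15 of 20 rose and 1 fell, with a median of 0.56 against 0.04, and with any one sample left out 19 of 20 rose. Mars, the synthetase for methionine, overlaps Ddit3 on the opposite strand and rose by 1.12 on the log2 scale, and whether reads were counted by strand is not given in the sources used here.

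Among genes that act on eIF2, 15 of 16 rose and 7 were called, with a median of 0.92. Ppp1r15a, the stress-induced subunit of the phosphatase that reverses eIF2 phosphorylation, rose from 10.6 ± 2.03 to 44.9 ± 6.38 RPKM (log2 fold change 2.08, adjusted p = 2.81e-06), and Eif2b2, a subunit of the exchange factor, from 7.08 ± 0.255 to 18.3 ± 2.35. With median-ratio scaling 9 of 16 rose and 1 fell, with a median of 0.39. The kinases Eif2ak1, Eif2ak2, Eif2ak3 and Eif2ak4 all rose as deposited, by 0.50 to 1.01, where the median of all genes was 0.57.

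Other targets of ATF4 and CHOP moved both ways, with 4 called higher and 2 lower of 13 tested and a median of 0.38. Gdf15, a secreted stress hormone, stood at 0.378 ± 0.271 RPKM in Ctrl and 4.43 ± 1.53 in icKO (log2 fold change 3.33, adjusted p = 7.11e-05) and passed the minimum only through icKO. Ero1l, an oxidase of the endoplasmic reticulum, rose from 1.89 ± 0.0549 to 7.87 ± 1.20. Gpt2, a mitochondrial alanine aminotransferase, fell from 14.01 ± 3.34 to 2.39 ± 0.704, and Vldlr, a lipoprotein receptor, from 68.8 ± 3.98 to 29.97 ± 0.3001. Fgf21, another secreted product of the response, was listed at 0 in all 6 adult samples. With median-ratio scaling 2 were called higher and 4 lower.

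The remaining enzymes of serine, glycine and folate metabolism did not follow Psat1 and Mthfd2 as a group. Of 12 tested 2 were called higher and 2 lower, with a median of 0.13 (-0.40 with median-ratio scaling, where 0 were called higher and 3 lower). Fpgs, which adds glutamate to folates, rose from 0.986 ± 0.357 to 2.07 ± 0.444 RPKM, having passed the minimum only through icKO, and did not pass with median-ratio scaling (log2 fold change 0.53, adjusted p = 0.131). Aldh1l2, the mitochondrial enzyme that oxidises formyl folate, fell from 1.97 ± 0.288 to 0.260 ± 0.0448, a log2 fold change of -2.52 (adjusted p = 1.50e-05), and passed the minimum only through Ctrl. Dld, a subunit of the glycine cleavage system and of several dehydrogenases, fell from 125 ± 7.23 to 60.0 ± 10.9. Psph, the last enzyme of serine synthesis, stood at 1.32 in Ctrl and 1.53 in icKO and did not pass the test (adjusted p = 0.529).

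Mitochondrial proteases and chaperones had a negative median, -0.30, with 2 called higher and 2 lower of 13. The proteases Htra2 (6.43 ± 0.627 to 15.4 ± 0.998 RPKM) and Lonp1 (35.8 ± 0.810 to 83.3 ± 7.64) rose. Clpp, a further protease of the matrix (19.8 ± 0.663 to 9.55 ± 0.890), and 0610009O20Rik, the older symbol of Dele1, which signals mitochondrial stress to an eIF2 kinase (45.6 ± 1.62 to 11.1 ± 2.81), fell. With median-ratio scaling 0 were called higher and 6 lower. The ATF6 and XBP1 arm lay at the median of all genes, 0.56, with 6 called higher and 1 lower of 21 (a median of 0.03 with median-ratio scaling, where 4 were called higher and 1 lower). Edem1 (0.813 ± 0.238 to 3.47 ± 0.522), which helps to clear misfolded proteins and passed the minimum only through icKO, and the sensor Atf6 (18.7 ± 5.55 to 67.6 ± 10.01) rose, and Herpud1, a part of the same clearance, fell from 200 ± 79.4 to 31.4 ± 2.75. Of 9 glutathione genes tested 3 were called higher and 0 lower, with a median of 0.77, and 3 higher and 1 lower with a median of 0.24 under median-ratio scaling. They were led by the peroxidase Gpx1 (22.6 ± 2.11 to 176 ± 14.6) and by Gclm, a subunit of the enzyme that begins glutathione synthesis (5.62 ± 2.25 to 19.8 ± 2.27). Chac2, a paralog of Chac1, was the one that fell, by 0.67 on the log2 scale (adjusted p = 0.0177).

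**Figure D3:**
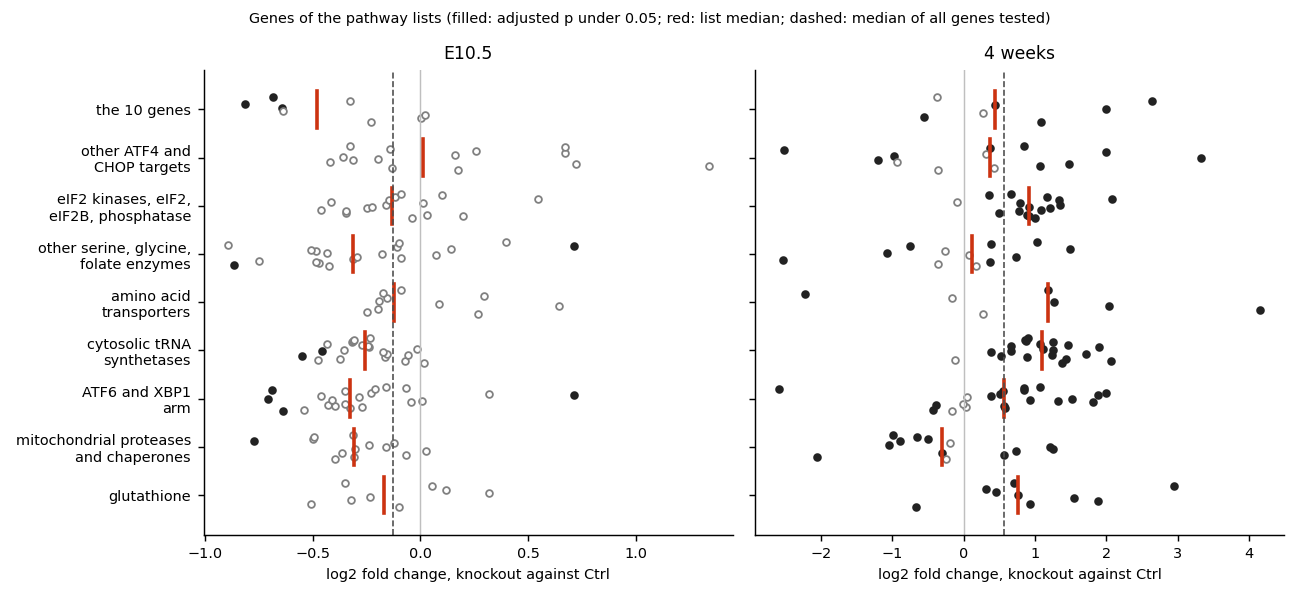
Log2 fold change of knockout against Ctrl for each tested gene of the 10 genes and of the 8 pathway lists, at E10.5 (left) and 4 weeks after tamoxifen (right), with genes past an adjusted p of 0.05 filled, list medians in red and the median of all genes tested dashed. The axes of the panels differ in range. In adult cells the tRNA synthetase and transporter medians (1.10 and 1.18) lie right of the dashed line at 0.57, and the mitochondrial proteases and chaperones (-0.30) left of it.

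By the GENCODE M21 annotation of GRCm38, Atf4 lies on chr15:80255184-80257541, Trib3 on chr2:152337422-152344032, Asns on chr6:7675169-7693254 and Chac1 on chr2:119351229-119354381, with no other annotated gene overlapping. Phgdh (chr3:98313170-98339990) overlaps none but has an annotated pseudogene, Phgdh-ps1. The others share sequence or position with a neighbour: Atf5 (chr7:44812256-44816658) with Nup62 and Il4i1, Ddit3 (chr10:127290774-127296288) with Mars and Gm4189, Shmt2 (chr10:127517123-127522444) with Ndufa4l2, Psat1 (chr19:15904678-15947337) with the pseudogene Gm3329, and Mthfd2 (chr6:83305691-83325908) with Gm43890 on the same strand. Their RPKM could include reads of those genes.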

How the data were processed

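RNA of 12 samples, 4 groups of 3, was sequenced by the authors from ribosome-depleted total RNA libraries. The submitters' processing notes name cutadapt 2.6, STAR 2.5.3a, HOMER 4.11.1 and DESeq2 1.12.4, and the genome was GRCm38 (mm10). The authors deposited RPKM for each gene and sample in 1 table per stage, without a minimum. The library total used for scaling and the gene annotation are not given in the sources used here. The tables also hold the authors' fold change, FDR and mean RPKM, which were not used. In the E10.5 table the knockout columns are headed icKO, and the sample labels say cKO.

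RPKM as deposited were tested with limma 3.58.1 (R 4.3.3; lmFit, eBayes with trend) on log2(RPKM + 0.1), which understates changes of low genes, on genes whose RPKM averaged above 1 across all 6 samples of a stage. P-values were Benjamini-Hochberg adjusted over all genes tested, and a call needed a log2 fold change beyond 1 with an adjusted p under 0.05. No count test was run, because RPKM are not counts. Reads were estimated from the spacing of low values, of which 63.8% to 69.7% lay within 0.1 of a whole read (20% by chance), and cover counting error only. Tables were read with Python 3.11.15, pandas 2.3.3 and numpy 2.4.6, and the fits were tested on simulated data. Replicates were used as separate samples, no pair of libraries being identical.

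The 10 genes, the 8 pathway lists and the 7 marker lists were chosen with earlier results of these data known. All 10 genes are named, and of each list the 2 genes with the largest called change in each direction, except that 1 gene of the lists is not reported here. Dars, Mars, Psph, Fgf21, Chac2, the eIF2 kinases and the genes that passed at E10.5 without a call were named after their values were seen. Alternatives were other pseudocounts, minimums, scalings and variance settings, a replicate block, and leaving out each sample.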

Additional observations from a re-analysis of the deposited data

Results flagged for a closer look

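The knockout effect differed between stages by limma's contrast in 4 genes, as the effect at 4 weeks minus that at E10.5 on the log2 scale. The difference was 3.32 for Mthfd2, 2.64 for Psat1, 1.31 for Atf4 and 0.77 for Shmt2, with Benjamini-Hochberg adjusted p of 3.45e-07, 1.24e-05, 1.28e-05 and 0.000600. Of all 8909 genes in this fit 68.7% differed, with a median difference of 0.69, and 5296 differed toward higher values in adult cells. The share that differed among the tested genes of the list was no more than that of all genes. Mthfd2, Psat1, Atf4 and Shmt2 were lower in all 3 cKO hearts than in all Ctrl hearts. These genes were higher in all 3 icKO samples than in all adult Ctrl samples. Of all genes tested, 22.6% had the first order at E10.5 and 62.0% had the second at 4 weeks. Psat1 and Mthfd2 reached the adult minimum of expression only through icKO. The difference of Shmt2 did not pass under any of the 3 other scalings, from 0.11 to 0.36. Stage, tissue, Cre line and tamoxifen differ together and cannot be told apart.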

How the results depend on the processing

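Of the 10 genes, 3 were called higher at 4 weeks, 5 with no minimum RPKM (Asns and Trib3 added), 1 with a mean RPKM above 5, which Psat1 and Mthfd2 do not reach, and 1 to 3 with each sample left out. Over all genes 2668 of 9517 were called higher, 3472 of 16289 with no minimum and 1687 of 5736 above 5. With each sample left out it was 2493 to 2795. None was called lower at 4 weeks as deposited, and 1 was called lower with median-ratio scaling and with quantile normalization. Over all 9517 genes these counts were 804, 1476 and 1341. The number that differed between stages was 4, 7 with no minimum, 2 with a mean RPKM above 5, and 2 to 5 with each sample left out. With no minimum Asns, Trib3 and Phgdh were added, although Phgdh had 0 reads in adult Ctrl and about 1 to 4.1 in icKO. Over all genes 6124 of 8909 differed, 7368 of 15543 with no minimum and 3619 of 4683 above 5. With each sample left out it was 5741 to 6209. No gene of the 10 was called at E10.5 under any alternative. Direction turned for Atf5 at E10.5 (main 0.00), to -0.01, -0.09 and -0.15 without Ctrl replicate 1, Ctrl replicate 2 and cKO replicate 3, and for Ddit3 (main 0.02), to -0.05 and -0.12 without Ctrl replicate 1 and cKO replicate 3. With each sample left out these ran from -0.15 to 0.14 and from -0.12 to 0.18. At 4 weeks Ddit3 turned to -0.26 and -0.25 and Shmt2 to -0.0904 and -0.10 with median-ratio scaling and quantile normalization. The Ddit3 difference between stages turned to -0.40, -0.38 and -0.16 with these 2 and when the 20 most abundant genes were kept out of the scaling. Median-ratio scaling moved the median of all genes at 4 weeks from 0.57 to 0.04. The cause of the other changes was not tested.

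Whether replicate numbers pair the samples could not be settled. Deviations of same-numbered samples correlated at 0.0124, 0.101 and -0.0698 at E10.5 and at 0.153, 0.0433 and 0.045 at 4 weeks. Not every sample correlated best with its own number, but 3 samples per group are too few to exclude pairing. With a replicate block the counts were 0 called at E10.5, 3 higher and 0 lower at 4 weeks and 4 differing between stages, and Asns at E10.5 passed, with an adjusted p of 0.0428. Over all genes the block gave 32 higher and 61 lower calls at E10.5, against 26 and 59. At 4 weeks it gave 2672 and 805, against 2668 and 804, and 6074 genes differed between stages, against 6124.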
